A study of Mus musculus with 12 samples.

Results

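Dido1 and Ppp1r10 are 2 mouse genes whose transcripts were lower in epiblast stem cells (EpiSCs) given CHIR99021. They were taken as the probes annotated to exactly 1 of the 2 genes, which gave 1 probe for Dido1 and 1 for Ppp1r10 among 35399 probes, and 2 genes among the 19938 with a probe of their own. No probe shared with a further gene carried either name, so each gene rests on a single probe. The pair was chosen because its values fell with CHIR99021 against untreated cells, and that comparison is therefore described here without a test.

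The study looked for downstream genes of CHIR99021, which inhibits the kinase GSK3, and of XAV939, which inhibits tankyrase. The cells, of background 129, are pluripotent and correspond to the epiblast after implantation, and another label field calls them embryonic stem cells. The 12 Affymetrix arrays, 1 biotin-labelled RNA sample each, formed 4 groups of 3: cells given CHIR99021 (3 µM) plus XAV939 (2 µM), cells given XAV939 alone, cells given CHIR99021 alone, and untreated cells. All groups were starved of serum for 12 h first, although the medium listed for every sample contains 10% serum. CHIR99021 was given for 2 h. The time with XAV939 is 2 h in the sample labels and 4 h in the design text, and which holds is unknown. Whether the 3 samples of a group were grown separately is not labelled, so the spread that p-values rest on may be technical.

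Dido1 encodes the DIDO proteins, splice forms of 1 gene that share a PHD finger, a domain that binds histone H3 methylated at lysine 4, the mark of active promoters. The longest form also has a domain related to the elongation factor TFIIS and a SPOC domain, which place it at elongating RNA polymerase II, and it is known for a role in the differentiation of mouse embryonic stem cells. Ppp1r10 encodes PNUTS, a nuclear regulatory subunit of protein phosphatase 1 (PP1). PNUTS joins the PP1 catalytic subunit to TOX4 and WDR82, and the complex dephosphorylates RNA polymerase II and the elongation factor SPT5, which slows the polymerase near the ends of genes. GSK3 is part of the complex that marks beta-catenin for destruction, so CHIR99021 stabilises beta-catenin, whereas XAV939 stabilises Axin and lowers beta-catenin.

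Because the pair fell together, DNA before their annotated starts is shown. The RefSeq promoter table used (GRCm38.p6) holds windows for 3 starts of Dido1 and 2 of Ppp1r10. For each gene the 250 bases before the start nearest the 5′ end among these are printed from 5′ to 3′ on the gene's strand. RefSeq's gene spans reach further upstream, so 69 of the 250 bases shown for Dido1 and all 250 shown for Ppp1r10 lie within the gene's span. Capitals mark matches, on either strand, to the motifs searched.
Dido1, chr2:180710000-180710249, minus strand: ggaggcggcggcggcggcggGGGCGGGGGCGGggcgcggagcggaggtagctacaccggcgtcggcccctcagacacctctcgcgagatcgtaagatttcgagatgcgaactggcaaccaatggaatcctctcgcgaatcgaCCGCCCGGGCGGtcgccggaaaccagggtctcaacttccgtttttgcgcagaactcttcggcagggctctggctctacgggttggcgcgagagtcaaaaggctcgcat
Ppp1r10, chr17:35916946-35917195, plus strand: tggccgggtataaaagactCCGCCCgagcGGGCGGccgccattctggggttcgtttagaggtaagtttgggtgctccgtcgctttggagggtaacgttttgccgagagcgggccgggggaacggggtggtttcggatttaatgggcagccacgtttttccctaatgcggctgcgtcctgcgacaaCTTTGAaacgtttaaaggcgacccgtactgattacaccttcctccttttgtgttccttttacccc
The motifs were the TCF/LEF core CTTTGA, the E-box CACGTG, the core TGACG of the cyclic AMP response element, the GC box GGGCGG and the ETS core CCGGAAG. The Dido1 window held 4 GC boxes, of which 3 were on the gene's strand. The Ppp1r10 window held 2 GC boxes, 1 on each strand, and 1 TCF/LEF core on the gene's strand, from 65 to 60 bases before this start, and so inside the gene's span. Among 32851 windows of the same length in the RefSeq table, 32.7% held a GC box and 13.8% a TCF/LEF core, so neither match is rare. In the other windows, the middle Dido1 window and the second Ppp1r10 window each held 1 GC box, and the third Dido1 window held no match to any of the 5 motifs. The E-box (6.02% of all windows), the core TGACG (17.8%) and the ETS core (6.91%) were found in none of the 5 windows of the 2 genes. Among the motifs searched, the only match outside GC boxes in the 5 windows was thus the CTTTGA of Ppp1r10. Only these exact letters were searched. Variants such as CTTTGT, which is present in the second Ppp1r10 window, were not counted. A match of letters does not show that a factor binds.

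The deposited values are read as log2 expression, a base inferred from their range of 2.52 to 14.3, so a change is a difference of logarithms. Array medians lay between 5.22 and 5.27, array standard deviations between 2.14 and 2.21, and correlations between arrays between 0.990 and 0.995. Of the markers chosen to check the cells, 6 of 6 general pluripotency genes and 4 of 5 primed epiblast genes had means above 4.93, the 95th percentile of 1190 olfactory and vomeronasal receptor genes, used as a rough background. The same held for 3 of 6 naive pluripotency, 3 of 6 fibroblast, 2 of 4 extraembryonic endoderm and 4 of 4 neural genes. Fgf5, which marks the primed epiblast, averaged 8.16 and the naive marker Zfp42 averaged 4.59, below the background measure. The 2 lists overlapped: primed genes ran from Cer1 at 3.99 and Foxa2 at 5.36 to Otx2 at 9.28, and naive genes from Esrrb at 4.43 to Klf2 at 5.54. The neural genes averaged between 5.01 and 5.83, and among fibroblast genes the collagen genes averaged 4.79 to 5.36 and Thy1 7.54. As a check of the compounds, the beta-catenin target Axin2 averaged 6.44 ± 0.08 with both compounds and 5.72 ± 0.20 with XAV939 alone, and 7.00 ± 0.04 with CHIR99021 alone and 5.94 ± 0.15 in untreated cells (SD, n = 3 each).

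Dido1 was lower in each of the 6 arrays with CHIR99021 than in each of the 6 without it. Its values were 7.65, 7.64 and 7.68 with both compounds and 8.49, 8.35 and 8.44 with XAV939 alone. With CHIR99021 alone they were 7.59, 7.50 and 7.72, against 8.45, 8.29 and 8.48 in untreated cells. The highest array with CHIR99021, at 7.72, lay below the lowest without it, at 8.29, and the arrays with both compounds had the smallest spread of the 4 groups. Because these are bulk samples, fewer cells with the transcript and less transcript per cell cannot be told apart.

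Ppp1r10 was also lower in each of the 6 arrays with CHIR99021, but its 4 groups were less evenly placed. Its values were 8.11, 8.19 and 8.23 with both compounds and 8.77, 8.71 and 8.78 with XAV939 alone. With CHIR99021 alone they were 7.92, 7.76 and 7.89, against 8.86, 8.49 and 8.50 in untreated cells. The arrays with both compounds lay between the 3 with CHIR99021 alone and the 6 without CHIR99021, with no overlap on either side. Untreated replicate 1 stood above the other untreated arrays. A gap between the 6 arrays with CHIR99021 and the 6 higher ones without it was found for 169 of the 19938 genes (0.848%), and since the pair was chosen for its fall, nothing is read from its place among them.

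**Figure D1:**
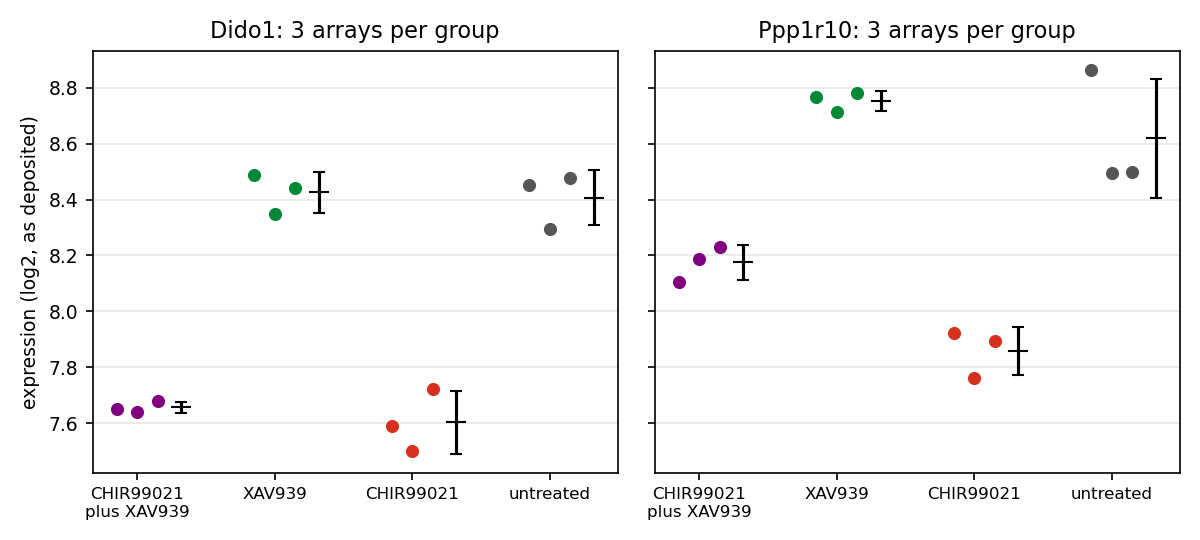
Deposited expression, read as log2, of Dido1 (left) and Ppp1r10 (right) on each array, with each group's mean and SD (bars, n = 3) beside its points. For both genes all 6 arrays with CHIR99021 lie below all 6 without it; for Dido1 the groups with both compounds and with CHIR99021 alone overlap, and for Ppp1r10 they do not.

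With CHIR99021 alone, the comparison that chose the pair, Dido1 averaged 7.60 ± 0.11 against 8.41 ± 0.10 in untreated cells (SD, n = 3 each). The change was -0.80 (SE 0.08), or 57.3% of the untreated level, and it was the lowest change of the 19938 genes. Ppp1r10 averaged 7.86 ± 0.09 with CHIR99021 alone against 8.62 ± 0.21 in untreated cells, a change of -0.76 (SE 0.09) or 59.1% of the untreated level, which ranked 3 from the lowest. Without untreated replicate 1, the change of Ppp1r10 was -0.64 and that of Dido1 -0.78. In this comparison the 3 treated arrays lay below the 3 untreated ones in 8.25% of all genes, and 0.166% of all genes were called lower, where called means an adjusted p under 0.05 in the limma fit, with Benjamini-Hochberg adjustment over all genes. The pair was picked from among these, so the share is printed for reference and nothing is read from it.

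With XAV939 present, CHIR99021 lowered both transcripts, in arrays that the comparison above did not use. Dido1 averaged 7.66 ± 0.02 with both compounds and 8.43 ± 0.07 with XAV939 alone, a change of -0.77 (SE 0.08, limma adjusted p = 0.000259) or 58.7% of the level with XAV939 alone. It again had the lowest change of the 19938 genes. Ppp1r10 averaged 8.18 ± 0.06 with both compounds and 8.75 ± 0.04 with XAV939 alone, a change of -0.58 (SE 0.09, limma adjusted p = 0.0117) or 67.0% of the level with XAV939 alone, which ranked 11 from the lowest. For each gene the 3 arrays with both compounds lay below the 3 with XAV939 alone, as was the case for 7.32% of all genes, while 0.135% of all genes were called lower. This result was already known when the pair was chosen, so it is not independent support for the fall.

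The call of Dido1 in that comparison held in each of the 24 alternative fits, with limma adjusted p between 7.16e-05 and 0.00754. In the fit to the compared groups alone, the limma adjusted p was 0.00208 for Dido1 and 0.0148 for Ppp1r10. The call of Ppp1r10 was nearer the threshold. It ended without XAV939 replicate 1 or 3 (limma adjusted p = 0.0657 and 0.0557), without replicate 1 or 2 of the arrays with both compounds (limma adjusted p = 0.056 and 0.0538), and when all 35399 probes were tested (limma adjusted p = 0.0944). The change of Ppp1r10 lay between -0.62 and -0.54 in the 24 fits. Only other normalizations, array weights and leaving out arrays of the compared groups could move it.

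**Figure D2:**
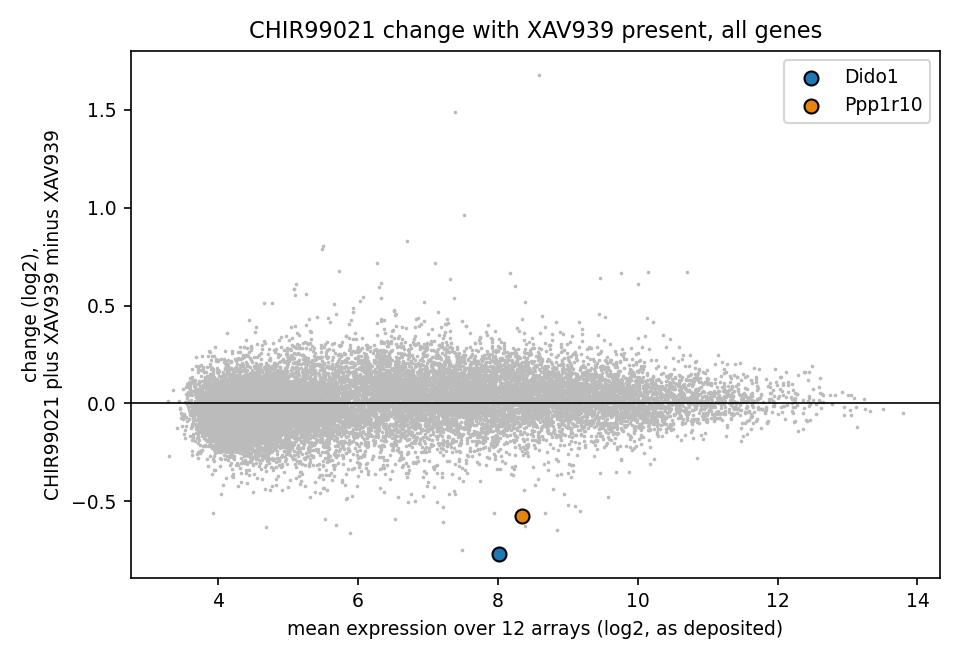
Change (log2, both compounds minus XAV939 alone) against mean expression over 12 arrays (log2) for all 19938 genes in grey, with Dido1 and Ppp1r10 coloured. Dido1 at -0.77 is the lowest point of the plot and Ppp1r10 lies at -0.58; both have means near 8.

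With both compounds against untreated cells, which shares the untreated arrays with the comparison that chose the pair, the values are again given without a test. The change was -0.75 (SE 0.08) for Dido1, to 59.5% of the untreated level, and -0.44 (SE 0.09) for Ppp1r10, to 73.6%. For Ppp1r10 the change was -0.32 without untreated replicate 1. Among all genes 0.311% were called lower in this comparison, and in 12% the 3 arrays with both compounds all lay below the 3 untreated ones.

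The next question was whether XAV939 moved either gene. Averaged over cells with and without CHIR99021, a contrast orthogonal to the one that chose the pair, XAV939 changed Dido1 by 0.04 (SE 0.06, 95% interval -0.08 to 0.15, limma adjusted p = 0.779). Ppp1r10 was 0.23 higher in the 6 arrays with XAV939 (SE 0.07, 95% interval 0.09 to 0.37), which did not pass over all genes (limma adjusted p = 0.114), while 0.331% of all genes were called. Without untreated replicate 1 the value was 0.29 and passed (limma adjusted p = 0.0495). Over the other alternatives it did not pass, with limma adjusted p up to 0.255.

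Each part of this average was also fitted alone. With both compounds against CHIR99021 alone, Ppp1r10 had a change of 0.32 (SE 0.09, 95% interval 0.12 to 0.51), or 125% of the level with CHIR99021 alone, and did not pass (limma adjusted p = 0.268). Its 3 arrays with both compounds all lay above the 3 with CHIR99021 alone, as they did in 8.92% of all genes. Dido1 had a change of 0.05 (SE 0.08, 95% interval -0.11 to 0.22, limma adjusted p = 0.847) and its arrays overlapped. With XAV939 alone against untreated cells, the changes were 0.13 (SE 0.09, 95% interval -0.06 to 0.33, limma adjusted p = 0.596) for Ppp1r10 and 0.02 (SE 0.08, 95% interval -0.15 to 0.19, limma adjusted p = 0.947) for Dido1, with arrays that overlapped for both genes. Limma called 0.0251% of all genes between both compounds and CHIR99021 alone, and 0% between XAV939 alone and untreated cells, where 2241 genes had an unadjusted p under 0.05. The choice of the pair for low values with CHIR99021 and high values in untreated cells pulls the first of these 2 comparisons upward and the second downward.

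Subtracting the CHIR99021 change without XAV939 from that with XAV939 gave the interaction, which was 0.03 for Dido1 (SE 0.11, 95% interval -0.20 to 0.27, limma adjusted p = 0.992) and 0.18 for Ppp1r10 (SE 0.13, 95% interval -0.10 to 0.46, limma adjusted p = 0.965). Neither passed, and limma called 0% of all genes, with 985 at an unadjusted p under 0.05. The choice of the pair pulls this value upward. The intervals leave room for a CHIR99021 change of Dido1 up to 0.27 smaller, and of Ppp1r10 up to 0.46 smaller, with XAV939 than without it.

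**Figure D3:**
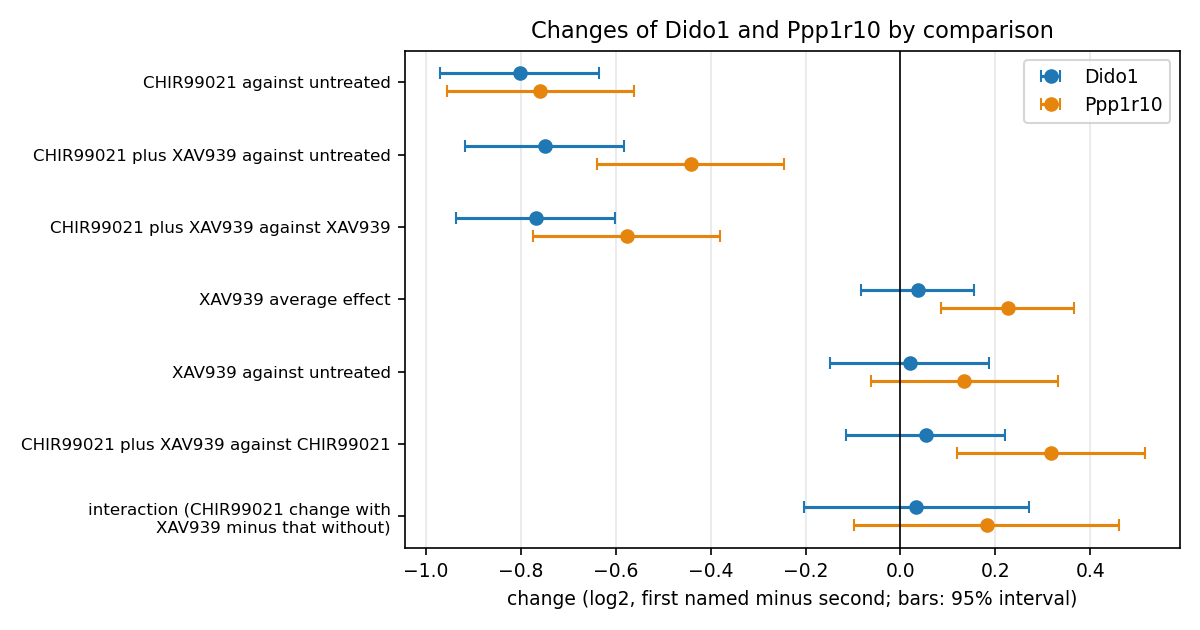
Changes (log2, first named minus second) of Dido1 and Ppp1r10 in the 7 comparisons, from the limma fit, with 95% intervals as bars. The 3 comparisons that add CHIR99021 lie between -0.80 and -0.44, and the 3 that add XAV939 lie between 0.02 and 0.05 for Dido1 and between 0.13 and 0.32 for Ppp1r10.

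The sizes of the falls of Dido1 and Ppp1r10 were also set against each other. With XAV939 present, the change of Dido1 minus that of Ppp1r10, taken within each array, was -0.19, and a two-sided exact permutation test gave p = 0.1, the smallest that 3 arrays against 3 allow. Without XAV939, in the comparison that chose the pair, the same difference was -0.04. Around the group means, the residual SD over the 12 arrays was 0.08 for Dido1 and 0.12 for Ppp1r10, and 76.3% and 39.0% of all genes had a larger one. Both genes lay on the same side of their group mean on 9 of the 12 arrays.

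The genes of most similar profile were taken as those with the smallest root mean square difference of centred log2 values over the 12 arrays, among 11646 genes above the background measure. Ppp1r10 was nearest to Dido1, at 0.149, and Dido1 was the third nearest to Ppp1r10, but both were chosen for falling with CHIR99021 and those arrays enter the measure, so their closeness follows in part from that choice. The other near genes were the same 4 for both: Pim1, a serine/threonine kinase gene, Lrrn4, which encodes a leucine-rich repeat protein, Gprc5c, an orphan receptor gene, and Gadd45b, a gene induced by stress. Gadd45b was nearest to Ppp1r10, at 0.112. Its mean was 6.61 ± 0.10 with both compounds and 7.11 ± 0.05 with XAV939 alone, and 6.22 ± 0.05 with CHIR99021 alone and 6.92 ± 0.08 in untreated cells (SD, n = 3 each). Pim1 averaged 7.72 ± 0.05 with both compounds, 8.28 ± 0.07 with XAV939 alone, 7.65 ± 0.14 with CHIR99021 alone and 8.14 ± 0.08 in untreated cells (SD, n = 3 each). In all 6 genes, Dido1 and Ppp1r10 included, the mean with both compounds lay between those with CHIR99021 alone and in untreated cells. The other 4 genes were chosen for likeness over these same arrays, so a shared order follows in part from that choice. For Dido1 the 2 groups with CHIR99021 differed by only 0.05 (SE 0.08), and their arrays overlapped. By Pearson's r over the 12 arrays in place of the difference, 1 of the 5 nearest genes was shared for Dido1 (Pim1) and 2 for Ppp1r10 (Gadd45b and Pim1), so the list depends on the measure.

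**Figure D4:**
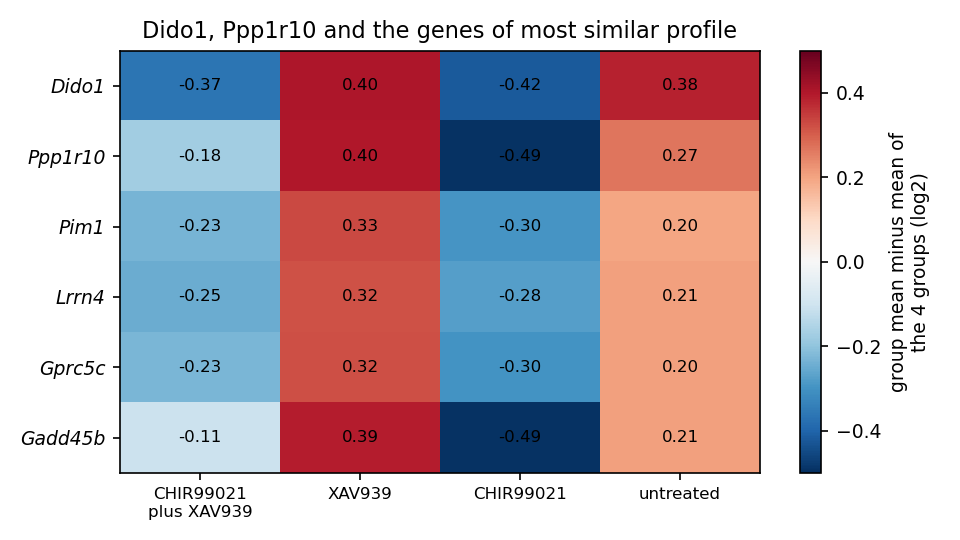
Group means (log2) minus the mean of the 4 group means for Dido1, Ppp1r10 and the 4 other genes of most similar profile; blue is lower and red higher. All 6 genes are lower in the 2 groups with CHIR99021 and lowest with CHIR99021 alone, for Dido1 by only 0.05 (SE 0.08). The genes were chosen for this likeness.

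The genes for the other members of the PNUTS-PP1 complex were counted as well, and none was called. The PNUTS-PP1 complex is otherwise made of the PP1 catalytic subunits Ppp1ca, Ppp1cb and Ppp1cc, Tox4, and Wdr82, which binds polymerase. Of these 5 genes, 0 were called in either direction with both compounds against XAV939 alone (0.236% of all genes called) or with CHIR99021 against untreated cells (0.421%). At such shares most sets of 5 genes would hold no called gene, so nothing is read from the absence of calls. Their changes lay between 0.02 and 0.11 in the first comparison and between -0.02 and 0.14 in the second, with medians of 0.07 and 0.07, beside medians of -0.004 and -0.005 over all genes. Wdr82 had 0.07 (SE 0.07) and 0.12 (SE 0.07), and Tox4 had 0.10 (SE 0.11) and 0.14 (SE 0.11).

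Of 25 other PP1 regulatory subunit genes, 0 were called in those 2 comparisons, where 0.236% and 0.421% of all genes were called. Here too nothing is read from the absence of calls. With CHIR99021 against untreated cells the smallest p in this list belonged to Ppp1r9b, which encodes the scaffold spinophilin, at -0.37 (SE 0.09, limma adjusted p = 0.104), Ppp1r15a at 0.45 (SE 0.11, limma adjusted p = 0.104) and Ppp1r3c, which targets PP1 to glycogen, at 0.36 (SE 0.09, limma adjusted p = 0.107). Ppp1r15a, the stress-induced subunit that directs PP1 to the translation factor eIF2, rose by 0.61 with both compounds against untreated cells (limma adjusted p = 0.0212), where 0.818% of all genes were called higher. The call ended without untreated replicate 2 or 3 (limma adjusted p = 0.0691 and 0.107), without replicate 1 or 2 of the arrays with both compounds (limma adjusted p = 0.0679 and 0.0941) and with all probes tested (limma adjusted p = 0.1). With both compounds against XAV939 alone it had a change of 0.08 (limma adjusted p = 0.868). Ppp1r15a averaged 7.87 with both compounds, 7.79 with XAV939 alone, 7.72 with CHIR99021 alone and 7.26 in untreated cells. It was thus also higher with each compound alone, uncalled (limma adjusted p = 0.221 for XAV939 alone against untreated).

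Among 10 measured genes for partners of PNUTS and substrates of PP1 in elongation, Myc fell with both compounds against XAV939 alone. In that comparison 0.236% of all genes were called, and 0.135% were called lower. Myc averaged 9.36 with both compounds and 9.84 with XAV939 alone, a change of -0.48 (SE 0.09, limma adjusted p = 0.0238). This call ended without XAV939 replicate 1 or 2 (limma adjusted p = 0.0728 and 0.115), without replicate 1 or 3 of the arrays with both compounds (limma adjusted p = 0.0651 and 0.13), in the fit to the compared groups alone (limma adjusted p = 0.089) and with all probes tested (limma adjusted p = 0.132). MYC protein is known to be stabilised by PNUTS, but the values here are of its transcript. With CHIR99021 against untreated cells Myc had a change of -0.31 (SE 0.09, limma adjusted p = 0.153). Supt5, which encodes SPT5, and Polr2a, the largest subunit of RNA polymerase II, had changes of -0.10 and -0.02 with both compounds against XAV939 alone and 0.04 and 0.11 with CHIR99021 against untreated cells. Neither was called, and with CHIR99021 against untreated cells 0.421% of all genes were. At such shares nothing is read from the absence of calls.

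None of 27 measured cleavage, polyadenylation and termination genes was called in those 2 comparisons, where 0.236% and 0.421% of all genes were called. At such shares nothing is read from the absence of calls. The medians of the 27 genes were 0.03 and 0.03. Zc3h4, which encodes a restrictor of unproductive transcription, had -0.27 (SE 0.08, limma adjusted p = 0.24) with both compounds against XAV939 alone and -0.22 (SE 0.08, limma adjusted p = 0.319) with CHIR99021 against untreated cells. The nuclear exonuclease gene Xrn2 had 0.08 and 0.03. None of 14 SET1/COMPASS genes, whose products place methyl groups on histone H3 lysine 4, was called either, with medians of 0.04 and 0.09.

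Genes of proteins that resemble DIDO in their domains were also counted, and none was called. In those 2 comparisons 0.236% and 0.421% of all genes were called. At such shares short lists would mostly hold no called gene, so nothing is read from the absence of calls. Of 7 measured genes of SPOC domain and TFIIS-like proteins, 0 were called in those 2 comparisons. Phf3, the closest relative of Dido1 in this list by its combination of domains, had -0.01 (SE 0.08) with both compounds against XAV939 alone and 0.09 (SE 0.08) with CHIR99021 against untreated cells. Spen, a SPOC domain repressor gene, had 0.19 (SE 0.09, limma adjusted p = 0.516) and 0.35 (SE 0.09, limma adjusted p = 0.113), and Rbm15b, which encodes another SPOC domain protein, had -0.11 (SE 0.12, limma adjusted p = 0.802) and -0.40 (SE 0.12, limma adjusted p = 0.199). Of 17 PHD finger genes whose products read methylated histone H3 lysine 4, 0 were called, with changes between -0.12 and 0.16 and between -0.11 and 0.26. Over all 7 lists, 1 of 105 genes was called lower (Myc) and 0 higher with both compounds against XAV939 alone, and 0 in either direction with CHIR99021 against untreated cells.

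**Figure D5:**
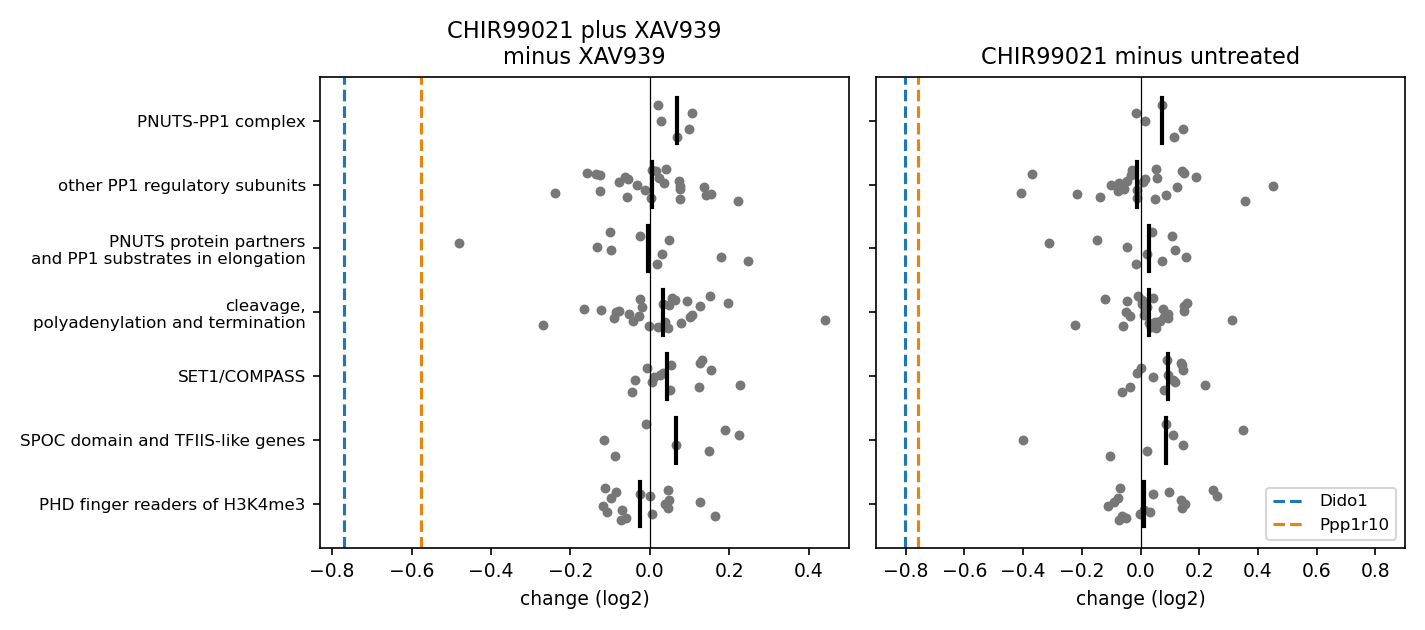
Change (log2) of each gene of the 7 lists (grey points) with the median of each list (black bar), with both compounds minus XAV939 alone (left) and CHIR99021 minus untreated (right); dashed lines mark Dido1 and Ppp1r10. The lowest list gene on the left is Myc at -0.48, to the right of both dashed lines.

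The genes beside Dido1 and Ppp1r10 on their chromosomes, by RefSeq order, were not called. The nearest 3 measured genes on each side were Ogfr, Col9a3 and Tcfl5, and Gid8, Slc17a9 and Bhlhe23, for Dido1 on chromosome 2, and 2310061I04Rik, Atat1 and Mrps18b, and Abcf1, Prr3 and H2-T24, for Ppp1r10 on chromosome 17. With both compounds against XAV939 alone their changes lay between -0.09 and 0.21 beside Dido1 and between -0.14 and 0.08 beside Ppp1r10. With CHIR99021 against untreated cells they lay between -0.10 and 0.10 and between -0.05 and 0.12. None of these 12 genes was called in either comparison, where 0.236% and 0.421% of all genes were called. At such shares most sets of 12 genes would hold no called gene, so nothing is read from this. Gid8, which encodes a ubiquitin ligase subunit, had 0.04 (SE 0.10) and -0.02 (SE 0.10), and Mrps18b, a mitochondrial ribosomal protein gene, had 0.08 (SE 0.07) and 0.08 (SE 0.07). RefSeq also places the small nuclear RNA gene Gm22502 within Dido1 and the microRNA gene Mir1894 within or across Ppp1r10, and neither had a probe with 1 gene here.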

How the data were processed

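The authors deposited 1 table of expression per probe for 12 arrays, read here as log2 from its range. Per the submitters' processing notes the software was Partek. Its version, and how background, normalization and probe summary were handled, is not given in the sources used here. No further normalization was applied. Of 35399 probes, 21789 had 1 gene symbol, 1621 several, and 11989 were not listed in the platform annotation. Symbols were updated by gene identifier to RefSeq (GRCm38.p6), and 91 probes without a match kept theirs. The probe with the highest mean stood for each gene. Groups and replicate numbers came from sample titles.

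A mean per group was estimated over the 12 arrays by limma 3.58.1, run in R 4.3.3 (lmFit and eBayes, two-sided, 8 residual and 8.03 prior degrees of freedom). The fit was tested on simulated data. The members, gene lists, tests and alternatives were chosen with earlier results of these data known. Named beyond the pair were Axin2, fixed markers, the 5 genes of most similar profile to each, 3 neighbours on each side, and list genes that were called or had the smallest p with CHIR99021 against untreated cells; Xrn2, Supt5, Polr2a and Phf3 were named for their roles. Alternatives were other normalizations, filters on dim genes, other probe rules, other fits, a replicate block and leaving out arrays; the checks of the calls of Myc and Ppp1r15a were added after seeing the data. Arrays carry no read depth, and their number limits the precision. Figures were drawn with matplotlib 3.10.9.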

Additional observations from a re-analysis of the deposited data

How the results depend on the processing

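The falls of Dido1 and Ppp1r10 with CHIR99021 kept their direction in all 24 alternatives of each comparison. Only other normalizations, array weights and leaving out arrays of the compared groups could move these changes. The remaining alternatives repeat them by design. Leaving out 1 array at a time, Ppp1r10 lay between -0.82 and -0.64 with CHIR99021 against untreated, between -0.50 and -0.32 with both compounds against untreated, and between -0.61 and -0.54 with both against XAV939 alone. With all probes tested the last was again -0.58, from the same probe, and did not pass (limma adjusted p = 0.0944). That fit differs in the number of probes tested and in the spread shared over them. Which of these moved the p was not tested. Quantile and cyclic loess normalization gave -0.84 and -0.84 for Dido1 with both compounds against untreated. The same 2 normalizations turned the sign of small uncalled XAV939 changes of Dido1: -0.0144 and -0.0236 for the average effect, -0.0261 and -0.0417 against untreated, and -0.0026 and -0.0056 with both compounds against CHIR99021; the cause was not tested. Leaving out 1 array gave Dido1 -0.0376 to 0.059 with XAV939 against untreated and -0.0184 to 0.0929 for the interaction, which was -0.0374 with array weights and -0.0411 without the pair of untreated replicate 3 and XAV939 replicate 2. The average effect of XAV939 on Ppp1r10 was 0.19 to 0.29 without 1 array. The replicate block changed no call of the pair. Every group holds the same replicate numbers, so the block cannot move a change, only its SE and p. With both compounds against XAV939 alone the changes were thus again -0.77 for Dido1 and -0.58 for Ppp1r10 (limma adjusted p = 0.000306 and 0.0188). Deviations of same-numbered arrays correlated between -0.25 and 0.20 over genes, with a median of 0.01. Those of other-numbered arrays correlated between -0.30 and 0.33, with a median of -0.005. This does not settle whether same-numbered arrays were handled together, which is unknown. The number of genes called, 84, 225, 47, 66, 0, 5 and 0 in the order of the plotted comparisons, ranged over the alternatives from 27 to 119, 7 to 550, 19 to 70, 2 to 255, 0 to 8, 0 to 10 and 0 to 1.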
